A study of Mus musculus with 24 samples.

Results

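Chemokines are small secreted proteins that direct the movement of leukocytes and other cells through receptors on their surface. The genes described here are 10 chemokine ligands of the mouse, chosen by their symbols in the deposited table of gene counts: Ccl2, Ccl7, Ccl12, Ccl3, Ccl4, Cxcl1, Cxcl10, Cxcl12, Cxcl14 and Cx3cl1. They were chosen with earlier results of these data known. They are 10 of 23420 entries, and all 10 were among the 16607 genes that passed the filter on low counts. Total RNA of whole cochleae was sequenced as 24 libraries in 8 groups of 3, all from CBA/Sca mice aged 12 weeks. The question was how the response to noise depends on the time of day and on adrenal hormones, and each animal had either its adrenal glands removed (adrenalectomized, ADX) or a sham operation.

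The groups were night noise ADX, night noise sham-operated, day noise ADX and day noise sham-operated, and the same 4 combinations of period and operation with sham exposure in place of noise. The noise lasted 1 h and covered a band between 6 and 12 kHz, at a level of 100 dB SPL. The series' design text places it at zeitgeber time (ZT, hours after lights on) 3 for day and 15 for night, with collection 2 h later, whereas the sample labels give ZT11 for day and ZT23 for night, and the sources used here do not settle which holds. Libraries within a group carry the letters a, b and c, and nothing says that they came from separate animals, so p-values measure only the spread between these libraries, which may be technical.

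Library totals ran between 18894996 and 36108962 counts. Markers of the cochlea were present: summed levels per library were 143 to 240 CPM (counts per 1000000 of the scaled library total) over 6 hair cell genes, 4178 to 7008 CPM over 5 genes of spiral ligament fibrocytes and 1296 to 1861 CPM over 6 genes of the stria vascularis. Some libraries stood apart. Library a of night noise ADX held 9643 CPM summed over 3 pituitary genes, against at most 133 CPM in any other library, and library b of day sham exposure sham-operated and library b of night noise sham-operated held the highest sums over 8 cerebellar genes, 266 and 247 CPM. The noise results of the chemokines that use these 3 libraries are therefore also given without them, a choice made after seeing the data; those of receptors, regulators and markers are given with all libraries. Pools of 6 libraries were loaded for sequencing, per the labels' protocols, but the labels do not place libraries in pools, so a pool effect was not tested.

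Chemokines fall into families named for the spacing of their first cysteines. Ccl2, Ccl7 and Ccl12 are monocyte chemoattractants that act through the receptor Ccr2, and Ccl7 also binds Ccr1. Ccl3 and Ccl4 are macrophage inflammatory proteins that attract macrophages and T cells, and Ccl3 acts through Ccr1. Cxcl1 attracts neutrophils through Cxcr2. Cxcl10 is an interferon-induced attractant of T cells and natural killer cells through Cxcr3. Cxcl12 is a constitutive stromal chemokine that binds Cxcr4 and the atypical receptor Ackr3, Cxcl14 is a homeostatic chemokine of epithelia, and Cx3cl1 (fractalkine) is made as a membrane protein whose receptor Cx3cr1 marks macrophages and microglia. In the cochlea, resident macrophages are found in the spiral ligament, the stria vascularis and the spiral ganglion, and monocytes enter after acoustic injury.

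Levels spanned several orders of magnitude. After division of CPM by the length of a transcript, Cxcl12 stood highest of the 10 in sham-exposed cochleae, with a median of 331 CPM per kb and a range of 299 to 368 over 12 libraries. Cxcl14 followed at 17.4 CPM per kb (13.8 to 20.6) and Cx3cl1 at 14.5 CPM per kb (12.6 to 16.5), and the ranges of these 2 neighbours in the order overlapped. The other 7 were scarce. Cxcl10 had a median of 1.99 CPM per kb in sham-exposed libraries, Ccl12 1.04, Ccl3 0.817, Ccl4 0.601, Ccl2 0.601, Cxcl1 0.386 and Ccl7 0.254, and the ranges of each adjacent pair among these 7 overlapped, while Cxcl10 lay below Cx3cl1 in every sham-exposed library. In noise-exposed libraries the medians of Cxcl12, Cxcl14 and Cx3cl1 were 339, 15.7 and 15.5 CPM per kb, still the top 3. Ccl2 at 4.33 and Ccl7 at 3.80 CPM per kb then stood next, followed by Cxcl10 at 2.20, Ccl12 at 1.91, Ccl3 at 1.29, Ccl4 at 1.03 and Cxcl1 at 0.775.

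**Figure D1:**
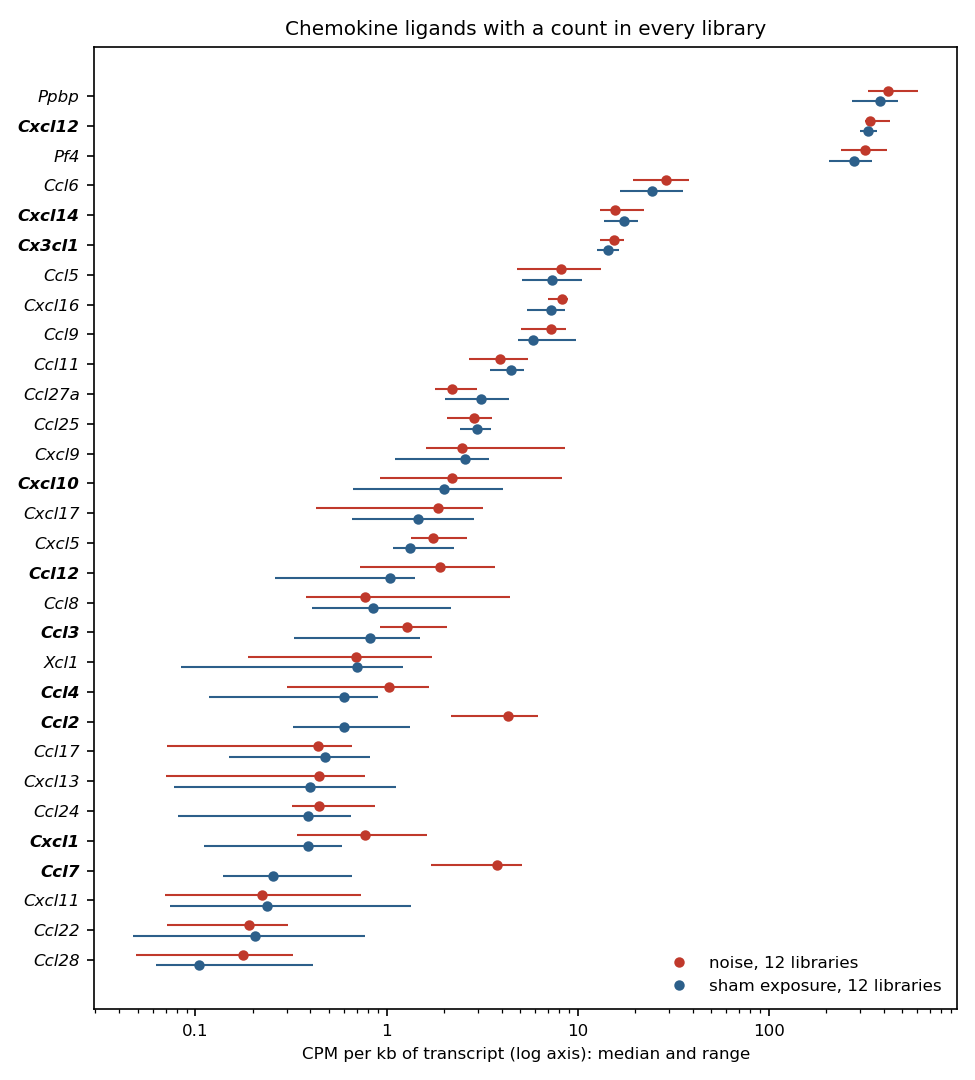
Chemokine ligands with at least 1 count in every library, except Ccl19, for which no transcript length was used here. They are listed by their median in sham-exposed cochleae, as CPM per kb of transcript on a log axis, and members described here are in bold. Points are medians and lines ranges over 12 noise libraries (red) and 12 sham-exposure libraries (blue), and the red and blue ranges of Ccl2 and Ccl7 are apart.

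Among the other ligands, the platelet chemokines Ppbp at 382 CPM per kb and Pf4 at 280 CPM per kb in sham-exposed cochleae were at the level of Cxcl12. Between these and Cxcl14 stood Ccl6, a macrophage chemokine of rodents, at 24.6 CPM per kb. With division by all annotated exon bases of the gene instead, the medians were 127 for Cxcl12, 382 for Ppbp and 228 for Pf4. The place of Cxcl12 beside the platelet chemokines thus depends on the length used. Whole cochleae include blood and, in the bony wall, marrow, and in such bulk samples fewer cells of a type and less RNA per cell cannot be told apart.

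Several of the 10 lie beside each other in the mouse genome (GRCm38 with the GENCODE vM21 annotation). Ccl2 at chr11:82035571-82037453 (+), Ccl7 at chr11:82045712-82047525 (+) and Ccl12 at chr11:82101845-82103400 (+) share a cluster with Ccl11 and Ccl8. Ccl3 at chr11:83647844-83649355 (-) and Ccl4 at chr11:83662584-83664683 (+) lie in another stretch of the same chromosome. Cxcl1 is at chr5:90891241-90893115 (+), Cxcl10 at chr5:92346638-92348889 (-) between Cxcl9 and Cxcl11, Cxcl12 at chr6:117168535-117181367 (+), Cxcl14 at chr13:56288643-56296551 (-) and Cx3cl1 at chr8:94772009-94782427 (+). Cxcl10 shares 133 of its 2252 exon bases with Art3 on the opposite strand, and the strand setting of the counting is not given in the sources used here, so its counts could include reads of Art3 or lack reads given to neither. Ccl2 lies in Gm17268 on the opposite strand with 0 exon bases shared, and the other 8 overlap no annotated gene.

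Promoters are shown for the 2 genes among those higher after noise that share a kappa-B pattern, Cxcl1 and Ccl12, for Cxcl10, which holds all 3 patterns searched, and for Cxcl12, the most abundant of the 10, which holds none. Sequences are the 250 bases before the RefSeq start (GRCm38.p6), on the gene's strand, with matches in capitals: Cxcl1 chr5:90890995-90891244 (+), Ccl12 chr11:82101595-82101844 (+), Cxcl10 chr5:92348890-92349139 (-) and Cxcl12 chr6:117168285-117168534 (+). RefSeq promoters were matched for 7 of the 10, and those of Ccl2, Ccl7 and Ccl4 were not used here.
Cxcl1: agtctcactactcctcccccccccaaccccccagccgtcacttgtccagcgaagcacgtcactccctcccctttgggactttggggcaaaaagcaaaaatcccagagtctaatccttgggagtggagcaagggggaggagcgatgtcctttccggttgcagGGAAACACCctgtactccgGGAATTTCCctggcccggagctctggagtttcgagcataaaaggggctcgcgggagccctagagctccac
Ccl12: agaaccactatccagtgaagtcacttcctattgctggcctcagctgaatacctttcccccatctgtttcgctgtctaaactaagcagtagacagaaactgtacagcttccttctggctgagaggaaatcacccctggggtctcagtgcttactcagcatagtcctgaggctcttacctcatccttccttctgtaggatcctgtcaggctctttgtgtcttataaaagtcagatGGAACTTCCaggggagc
Cxcl10: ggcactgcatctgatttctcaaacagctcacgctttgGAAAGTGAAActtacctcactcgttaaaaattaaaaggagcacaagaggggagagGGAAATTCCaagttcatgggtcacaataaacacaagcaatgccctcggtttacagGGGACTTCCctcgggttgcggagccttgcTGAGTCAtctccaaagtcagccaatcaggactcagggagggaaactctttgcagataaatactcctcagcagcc
Cxcl12: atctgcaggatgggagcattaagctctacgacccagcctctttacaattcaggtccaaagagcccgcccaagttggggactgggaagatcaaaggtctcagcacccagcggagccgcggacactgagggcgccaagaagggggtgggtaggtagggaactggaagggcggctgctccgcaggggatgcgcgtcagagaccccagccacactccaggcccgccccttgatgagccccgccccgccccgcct

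The patterns were searched on both strands of windows of 300 bases, of which 250 precede the start. The kappa-B pattern GGNNNTTCC, bound by NF-kappa-B factors, is in 18.5% of 32851 promoters of that length, the AP-1 pattern TGANTCA in 7.81% and the interferon response pattern TTTCNNTTTC in 3.44%. Counted from the start site, kappa-B matches began at -89 and -70 in Cxcl1, at -17 in Ccl12, at -158 and -103 in Cxcl10 and at -71 in Cx3cl1. Cxcl10 also had an AP-1 match at -74 and an interferon response match at -213, and Cxcl14 an interferon response match at -172. Windows of Ccl3 and Cxcl12 held no match, and no matches overlapped each other. These are matches of letters only and carry no measure of binding.

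Ccl2 and Ccl7 were higher after noise at both times and after both operations. At night, Ccl2 had 2.40, 4.28 and 4.13 CPM in the noise ADX libraries, against 0.426, 0.427 and 0.740 CPM in the sham-exposure ADX libraries. In sham-operated mice at night it had 4.42, 3.53 and 2.38 CPM after noise, against 0.493, 0.386 and 0.333 CPM after sham exposure. Every noise library of both pairs lay well above every sham-exposure library. By day, Ccl2 had 2.43, 5.03 and 4.66 CPM in the noise ADX libraries, against 0.813, 1.09 and 0.733 CPM in the sham-exposure ADX libraries. By day after a sham operation it had 1.91, 3.51 and 1.76 CPM after noise, against 0.263, 0.485 and 0.576 CPM after sham exposure. Again neither pair overlapped, and all 12 noise libraries were above all 12 sham-exposure libraries. The share of all genes whose groups do not overlap is not given here. Lack of overlap, for any gene below, therefore only describes these libraries.

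Ccl7 showed the same separation from a lower starting level. At night it had 1.57, 3.34 and 3.43 CPM in noise ADX libraries, against 0.122, 0.299 and 0.312 CPM in sham-exposure ADX libraries. In sham-operated mice at night it had 4.12, 3.23 and 1.36 CPM after noise, against 0.176, 0.193 and 0.111 CPM after sham exposure. The lowest noise library of each pair was several times the highest sham-exposure library. By day Ccl7 had 2.87, 3.67 and 3.94 CPM in noise ADX libraries, against 0.214, 0.459 and 0.193 CPM in sham-exposure ADX libraries. The sham-operated mice by day had 1.46, 2.37 and 2.12 CPM after noise, against 0.158, 0.529 and 0.266 CPM after sham exposure. All 12 noise libraries were above all 12 sham-exposure libraries here too, although the sham-exposure values rest on only 3 to 12 reads per library, so the size of the fold is less sure than its direction.

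**Figure D2:**
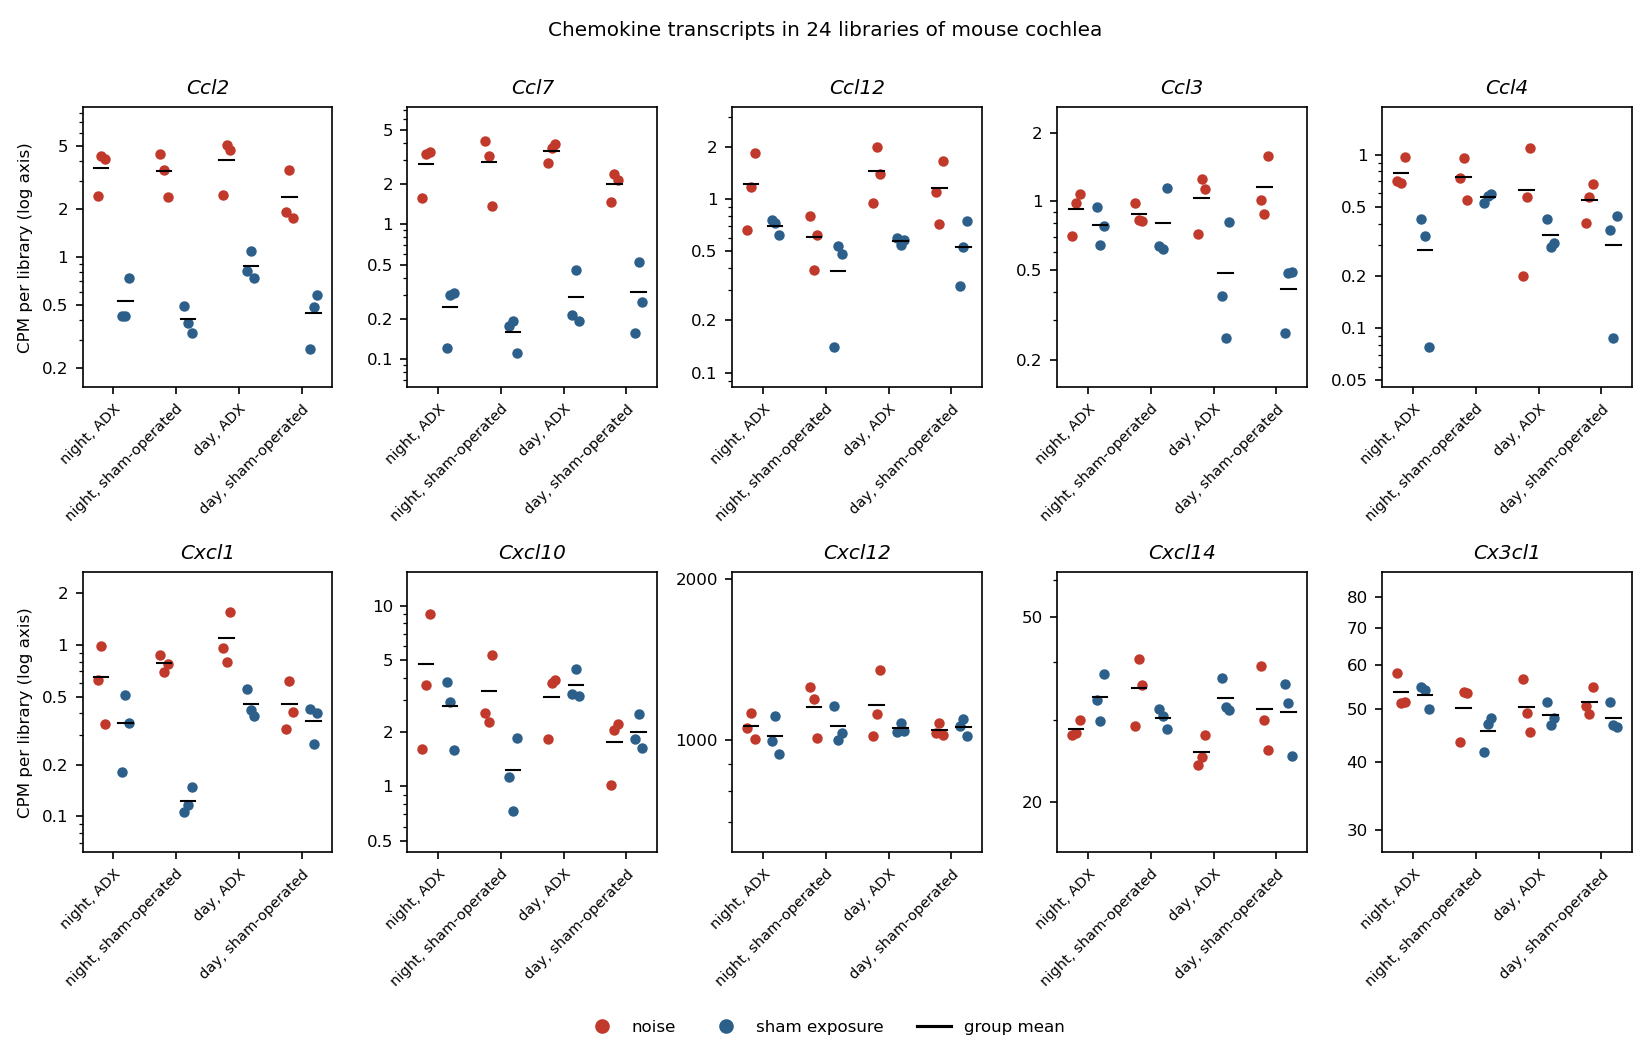
CPM per library on log axes for the 10 chemokines, with noise libraries in red, sham-exposure libraries in blue and group means as bars, in 4 pairs of period and operation. Red and blue points are apart in all 4 pairs for Ccl2 and Ccl7, while those of Cxcl12 and Cx3cl1 overlap in each pair.

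In edgeR's quasi-likelihood test with Benjamini-Hochberg adjustment over all 16607 genes, 2 of the 10 were higher in night noise ADX libraries than in night sham exposure ADX libraries, where 0.434% of all genes were. These were Ccl2, with a log2 fold change of 2.76 (6.75-fold, SE 0.371, edgeR adjusted p = 0.000252), and Ccl7, with 3.53 (11.6-fold, SE 0.473, edgeR adjusted p = 0.000252). Between the sham-operated groups at night 3 of the 10 were higher, where 0.668% of all genes were. Ccl2 had a log2 fold change of 3.07 (8.41-fold, SE 0.383, edgeR adjusted p = 7.19e-05), and Ccl7 one of 4.14 (17.7-fold, SE 0.498, edgeR adjusted p = 4.18e-05). The additional gene was Cxcl1, described below.

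By day 2 of the 10 were higher after noise in ADX mice, where 2.01% of all genes were: Ccl2 with a log2 fold change of 2.21 (4.62-fold, SE 0.348, edgeR adjusted p = 0.000925) and Ccl7 with 3.58 (12.0-fold, SE 0.459, edgeR adjusted p = 0.000104). After a sham operation 2 were higher by day too, where 0.211% of all genes were. Ccl2 had a log2 fold change of 2.39 (5.25-fold, SE 0.401, edgeR adjusted p = 0.00486) and Ccl7 one of 2.59 (6.02-fold, SE 0.477, edgeR adjusted p = 0.0130). A fit of only the 6 libraries of these sham-operated day groups left neither past the threshold of 0.05, with edgeR adjusted p = 0.0650 for Ccl2 and 0.0571 for Ccl7.

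As a mean of the 4 pairs, 5 of the 10 were higher after noise, where 2.4% of all genes were. The rise was 3.46 on the log2 scale for Ccl7 (11.01-fold, SE 0.239, edgeR adjusted p = 1.98e-09) and 2.61 for Ccl2 (6.09-fold, SE 0.188, edgeR adjusted p = 4.21e-09), and Cxcl1, Ccl12 and Ccl3 rose less. The median log2 fold change over the 10 was 0.81 in this mean, against -0.00 over all genes tested. In the single pairs it was 0.79 in ADX and 0.53 in sham-operated mice at night and 0.97 in ADX and 0.59 in sham-operated mice by day, against -0.01 to 0.00 over all genes. Because the 10 were chosen with earlier results of these data known, these medians and the shares called only describe the genes chosen. They are no test of chemokines as a class.

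Without the 3 libraries that stood apart, the log2 fold changes at night were 2.98 for Ccl2 and 3.82 for Ccl7 in ADX mice and 3.06 for Ccl2 and 4.07 for Ccl7 in sham-operated mice. For sham-operated mice by day they were 2.45 for Ccl2 and 3.16 for Ccl7. All 6 remained past the threshold (largest edgeR adjusted p = 0.0357, for Ccl2 in sham-operated mice by day), as did the 5 genes of the mean of the pairs.

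The ratio of Ccl7 to Ccl2 counts was higher after noise in group medians. In ADX mice at night it was 0.782 after noise, against 0.421 after sham exposure, and in sham-operated mice at night 0.914 after noise, against 0.357 after sham exposure. By day it was 0.846 after noise, against 0.263 after sham exposure, in ADX mice, and 0.766 after noise, against 0.60 after sham exposure, in sham-operated mice. The ranges overlapped in sham-operated mice by day, 0.676 to 1.21 after noise against 0.462 to 1.09 after sham exposure, and in ADX mice at night, 0.656 to 0.832 after noise against 0.286 to 0.700 after sham exposure. The ratio was not tested, and its value in sham-exposed libraries rests on few Ccl7 reads.

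**Figure D3:**
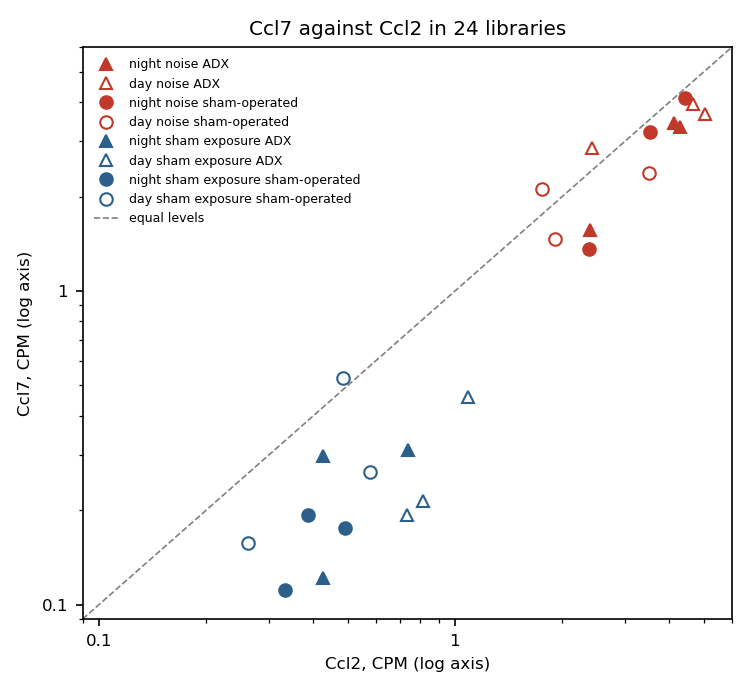
Ccl7 against Ccl2, both as CPM on log axes, 1 point per library, red for noise and blue for sham exposure, filled for night and open for day, triangles for ADX and circles for sham-operated. Red points lie between 1.76 and 5.03 CPM of Ccl2, above the highest blue point at 1.09, and the dashed line marks equal levels.

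Cxcl1, the neutrophil attractant, passed the threshold in the sham-operated groups at night. It had 0.876, 0.697 and 0.779 CPM after noise, against 0.106, 0.116 and 0.148 CPM after sham exposure, so the groups did not overlap. The sham-exposure values were the lowest of any group and rest on only 3, 3 and 4 reads. The size of the fold is therefore less sure than its direction, and every comparison of Cxcl1 that uses this group shares that limit. The log2 fold change was 2.63 (6.18-fold, SE 0.467, edgeR adjusted p = 0.00341). By day in ADX mice Cxcl1 had 0.956, 0.796 and 1.55 CPM after noise, against 0.556, 0.417 and 0.386 CPM after sham exposure. These groups did not overlap either, but the log2 fold change of 1.27 (SE 0.375, edgeR adjusted p = 0.0593) did not pass. The remaining pairs overlapped. In ADX mice at night the values were 0.628, 0.984 and 0.347 CPM after noise, against 0.182, 0.513 and 0.351 CPM after sham exposure. The sham-operated libraries by day had 0.325, 0.619 and 0.406 CPM after noise, against 0.420, 0.264 and 0.399 CPM after sham exposure. Over the 4 pairs Cxcl1 was 2.42-fold higher (log2 1.28, SE 0.215, edgeR adjusted p = 0.000642). Without the 3 libraries that stood apart its log2 fold change was 2.71 in sham-operated mice at night (edgeR adjusted p = 0.0166) and 1.25 over the 4 pairs (edgeR adjusted p = 0.00473).

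Ccl12, the rodent monocyte chemoattractant nearest to Ccl2 in function, passed in no single pair. In ADX mice by day it had 0.956, 1.99 and 1.40 CPM after noise, against 0.599, 0.543 and 0.579 CPM after sham exposure, without overlap (log2 1.35, SE 0.424, edgeR adjusted p = 0.0747). In sham-operated mice by day it had 1.10, 0.722 and 1.67 CPM after noise, against 0.315, 0.529 and 0.753 CPM after sham exposure, and library b after noise lay within the sham-exposure range. At night 1 noise library of each operation lay within the sham-exposure range, with 0.668, 1.18 and 1.85 CPM after noise against 0.760, 0.726 and 0.623 CPM after sham exposure in ADX mice. The night sham-operated libraries had 0.803, 0.392 and 0.623 CPM after noise, against 0.141, 0.541 and 0.481 CPM after sham exposure. Over the 4 pairs Ccl12 was 1.97-fold higher (log2 0.98, SE 0.222, edgeR adjusted p = 0.00982), and without the 3 libraries that stood apart 2.16-fold (edgeR adjusted p = 0.00691). Its fold is far smaller than those of Ccl2 and Ccl7, which lie in the same cluster, but that difference between genes was not tested.

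The macrophage inflammatory proteins passed in no single pair. In sham-operated mice by day Ccl3 had 1.01, 0.877 and 1.58 CPM after noise, against 0.263, 0.485 and 0.487 CPM after sham exposure, without overlap (log2 1.47, SE 0.398, edgeR adjusted p = 0.179). In ADX mice by day it had 0.717, 1.25 and 1.14 CPM after noise, against 0.385, 0.250 and 0.810 CPM after sham exposure, with library a of the noise group inside the sham-exposure range (log2 1.09, SE 0.377, edgeR adjusted p = 0.0961). At night the noise and sham-exposure libraries overlapped, with log2 fold changes of 0.21 in ADX and 0.14 in sham-operated mice. Over the 4 pairs Ccl3 was 1.65-fold higher (log2 0.73, SE 0.188, edgeR adjusted p = 0.0251). That call depended on single libraries: it was lost on leaving out library b of day noise ADX (edgeR adjusted p = 0.0540), library a of day sham exposure ADX (0.0505), library a of day sham exposure sham-operated (0.0542) or library b of night sham exposure sham-operated (0.0507). Without the 3 libraries that stood apart it was 0.81 on the log2 scale (edgeR adjusted p = 0.0412).

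Ccl4 had its clearest separation in ADX mice at night, with 0.707, 0.688 and 0.965 CPM after noise, against 0.426, 0.342 and 0.0779 CPM after sham exposure. The groups did not overlap, but the log2 fold change of 1.44 (SE 0.519, edgeR adjusted p = 0.304) did not pass. In the other 3 pairs the groups overlapped, with log2 fold changes of 0.39 to 0.87. The mean of the 4 pairs was 0.89 (SE 0.261, edgeR adjusted p = 0.0536), just short of the threshold, and DESeq2 and limma-voom put it past (adjusted p = 0.0254 and 0.0176). Without the 3 libraries that stood apart it was 0.74 and further from the threshold (SE 0.268, edgeR adjusted p = 0.159). Ccl4 had as few as 2 reads in a library.

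**Figure D4:**
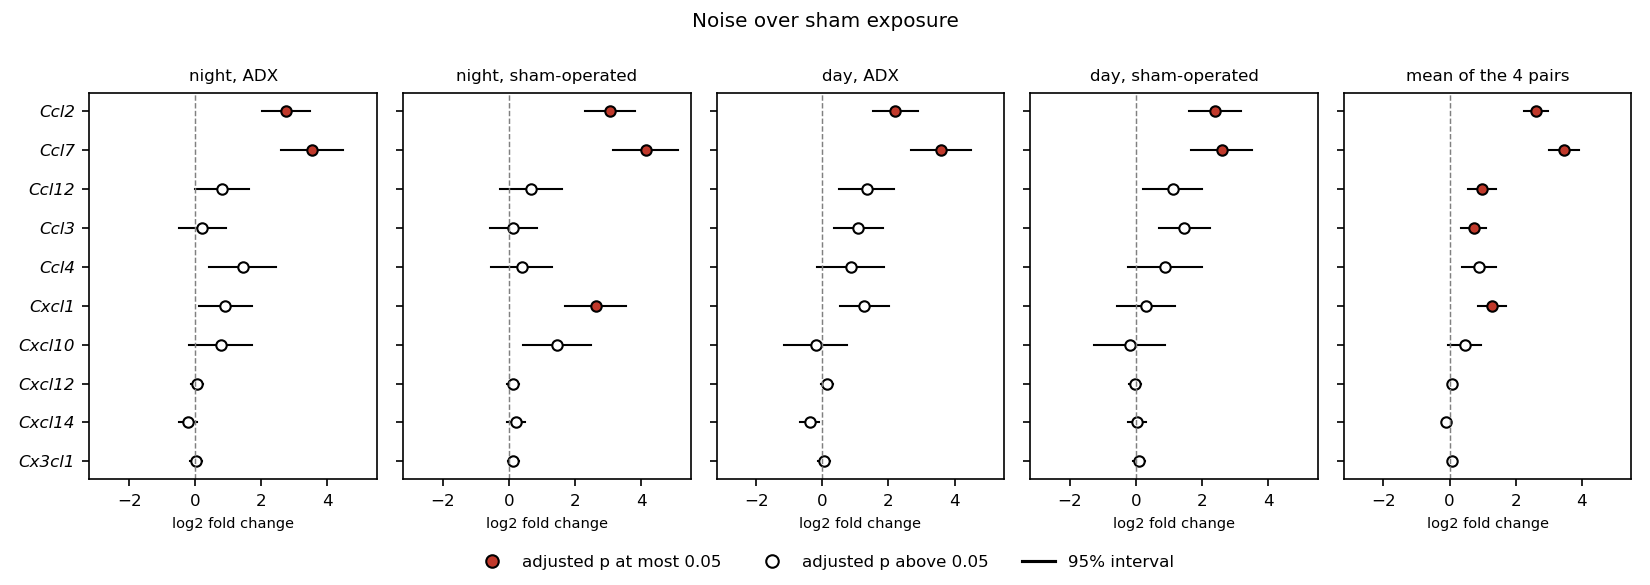
Log2 fold change of noise over sham exposure with 95% intervals for the 10 chemokines, in each of the 4 pairs of period and operation and as their mean, with filled points where the edgeR adjusted p was at most 0.05. Ccl2 and Ccl7 are filled in all panels, Cxcl1 in sham-operated mice at night and in the mean, and Ccl12 and Ccl3 in the mean.

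Cxcl10, the interferon-induced member, did not follow noise in a uniform way. In sham-operated mice at night it had 2.55, 2.27 and 5.34 CPM after noise, against 1.13, 0.734 and 1.85 CPM after sham exposure, without overlap (log2 1.45, SE 0.527, edgeR adjusted p = 0.391). In ADX mice at night it had 1.61, 3.64 and 9.07 CPM after noise, the widest spread of any group for this gene, against 3.80, 2.95 and 1.60 CPM after sham exposure. By day the groups overlapped. They held 1.83, 3.72 and 3.87 CPM after noise, against 3.25, 4.47 and 3.16 CPM after sham exposure, in ADX mice, and 1.01, 2.06 and 2.21 CPM after noise, against 1.84, 2.51 and 1.64 CPM after sham exposure, in sham-operated mice. The mean of the 4 pairs was 0.46 on the log2 scale with a 95% interval of -0.04 to 0.96 (edgeR adjusted p = 0.359). Without the 3 libraries that stood apart it was 0.67 (SE 0.236, edgeR adjusted p = 0.153), with 1.19 in ADX mice at night (SE 0.444, edgeR adjusted p = 0.366, against 0.77 with all libraries) and 1.67 in sham-operated mice at night (SE 0.483, edgeR adjusted p = 0.241).

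The 3 abundant members were steady. Cxcl12 had 1003, 1062 and 1350.0 CPM as the lowest, median and highest of the 12 noise libraries, against 938, 1036 and 1154 CPM in the 12 sham-exposure libraries. Its mean log2 fold change was 0.08 (95% interval -0.01 to 0.17, edgeR adjusted p = 0.405), an interval that leaves room for only small changes in either direction. Cx3cl1 had 43.4, 51.3 and 58.2 CPM in the noise libraries, against 41.7, 48.0 and 54.8 CPM in the sham-exposure libraries, and its mean log2 fold change was 0.08 (-0.01 to 0.16, edgeR adjusted p = 0.387). Without the 3 libraries that stood apart the means were 0.08 for Cxcl12 (SE 0.0541, edgeR adjusted p = 0.515) and 0.04 for Cx3cl1 (SE 0.0476, edgeR adjusted p = 0.719). These 2 genes had median coefficients of variation within groups of 6.77% for Cxcl12 and 6.70% for Cx3cl1, against 31.9% for Ccl2 and 40.6% for Ccl7.

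Cxcl14 varied little more, with a median coefficient of variation of 10.3%. It had 23.98, 28.6 and 40.6 CPM as the lowest, median and highest of the noise libraries, against 25.1, 31.9 and 37.7 CPM in the sham-exposure libraries, and a mean log2 fold change of -0.09 (95% interval -0.23 to 0.05, edgeR adjusted p = 0.528). Without the 3 libraries that stood apart, Cxcl14 had a mean of -0.11 (SE 0.0779, edgeR adjusted p = 0.536). In ADX mice by day it had 23.98, 25.0 and 27.9 CPM after noise, against 37.0, 32.0 and 31.6 CPM after sham exposure, so all noise libraries were below all sham-exposure libraries there. The log2 fold change of -0.39 (SE 0.142, edgeR adjusted p = 0.113) did not pass the threshold.

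Receptors for the members were counted in every group, and their levels are given in CPM, which compares groups for a gene but not genes with each other. By group mean, Cxcr4, the receptor of Cxcl12, lay between 107 ± 7.93 CPM in night sham exposure sham-operated and 137 ± 14.4 CPM in day noise ADX libraries (SD, n = 3, as for each receptor). Cxcr2, the receptor of Cxcl1, lay between 60.1 ± 4.48 CPM in night sham exposure ADX and 96.0 ± 8.79 CPM in night noise sham-operated libraries. Ackr3, which binds and clears Cxcl12, lay between 45.2 ± 5.87 CPM in night sham exposure sham-operated and 57.3 ± 3.38 CPM in day noise sham-operated libraries. These 3 had spreads far below their means. Ccr2 lay between 40.6 ± 5.85 CPM in night noise sham-operated and 56.5 ± 17.1 CPM in day noise ADX libraries, and Cx3cr1 between 25.8 ± 2.49 CPM and 35.3 ± 0.685 CPM in the same 2 groups. Ccr1 lay between 19.8 ± 1.73 CPM in day sham exposure ADX and 32.7 ± 2.40 CPM in night noise sham-operated libraries. Ackr1, a chemokine-binding receptor of red cells and venules, lay between 19.4 ± 1.80 CPM in night sham exposure ADX and 26.9 ± 4.70 CPM in night noise sham-operated libraries. Cxcr3 had group means of 1.60 to 2.28 CPM and the scavenger receptor Ackr2 of 0.754 to 1.37 CPM.

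Of 23 chemokine receptor genes listed, 20 were tested, since Ccr4, Ccr8 and Cxcr1 did not pass the filter. After noise 1 of them was higher in ADX mice by day, and 0 in the other 3 pairs and in the mean of the pairs, while 0 were lower in any of these 5 comparisons. Receptors at an unadjusted p under 0.05 in edgeR numbered 0 in ADX and 2 in sham-operated mice at night, 4 in ADX and 3 in sham-operated mice by day, and 5 in the mean. Over all genes 10.2% in ADX and 8.41% in sham-operated mice at night, 23.5% in ADX and 8.31% in sham-operated mice by day, and 18.7% in the mean were under that p, so in ADX mice by day the receptors' share was no larger than that of all genes. DESeq2 and limma-voom called 3 and 2 in ADX mice by day and 0 in the other 4 comparisons. The gene that passed was Ccr1, the receptor of Ccl3 and Ccl7, with 32.5 ± 9.99 CPM in day noise ADX libraries and 19.8 ± 1.73 CPM in day sham exposure ADX libraries (SD, n = 3 each; log2 0.72, SE 0.176, edgeR adjusted p = 0.0266). Ccr2, the receptor of the monocyte chemoattractants, passed in no noise comparison.

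Most other chemokine ligands were not called. Of 28 listed, 27 were in the table and 21 were tested, and 0 passed in edgeR in each of the 4 noise pairs. At an unadjusted p under 0.05 were 1 and 2 in ADX and sham-operated mice at night, against 10.2% and 8.41% of all genes. By day 4 and 1 were, against 23.5% and 8.31% of all genes. DESeq2 called 3 and limma-voom 1 in ADX mice by day, each called 1 in sham-operated mice at night, and both called 0 in the other pairs. In the mean of the pairs 1 passed, Cxcl16, a membrane-bound ligand of Cxcr6, at a log2 fold change of 0.21 (SE 0.0579, edgeR adjusted p = 0.0388). Ccl11 and Ccl8, the neighbours of Ccl2, Ccl7 and Ccl12, had mean log2 fold changes of -0.14 and 0.48 (SE 0.389 for Ccl8) and did not pass.

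Among 18 listed genes that regulate or process chemokines, 17 were tested, with the cytokine Il6 below the filter. In ADX mice by day 3 were higher after noise, where 2.01% of all genes were. There 7 were at an unadjusted p under 0.05 in edgeR, as were 23.5% of all genes. Zfp36, which promotes the decay of cytokine mRNAs, had 91.1 ± 16.4 CPM in day noise ADX and 62.2 ± 5.86 CPM in day sham exposure ADX libraries (SD, n = 3 each; log2 0.55, SE 0.113, edgeR adjusted p = 0.00972). Nfkbia, the inhibitor and target of NF-kappa-B, had 86.6 ± 6.501 CPM in day noise ADX and 63.5 ± 4.20 CPM in day sham exposure ADX libraries (log2 0.45, SE 0.0981, edgeR adjusted p = 0.0140). The tumour necrosis factor receptor Tnfrsf1a had a log2 fold change of 0.27 (SE 0.0616, edgeR adjusted p = 0.0185). In sham-operated mice at night 1 was higher, Zfp36 (log2 0.54, SE 0.113, edgeR adjusted p = 0.0188), where 0.668% of all genes were. In the other pairs 0 were. At an unadjusted p under 0.05 in edgeR were 3 in ADX mice at night and 1 in sham-operated mice by day, against 10.2% and 8.31% of all genes. DESeq2 and limma-voom called 0 in these pairs too. In the mean of the pairs 4 were higher, where 2.4% of all genes were: Zfp36 (log2 0.40, SE 0.0568, edgeR adjusted p = 0.000116), Nfkbia (0.24, SE 0.0491, 0.00426), Tnfrsf1a (0.14, SE 0.0308, 0.00717) and the cytokine Il1a (0.42, SE 0.102, 0.0165). All were smaller than the changes of Ccl2 and Ccl7.

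Markers of the cells that chemokines attract were measured in the same libraries. Of 12 macrophage markers, none at 0 in any library, 5 were higher in day noise ADX libraries than in day sham exposure ADX libraries (Aif1, Cd14, C1qa, C1qb and C1qc), where 2.01% of all genes were. All 12 were at an unadjusted p under 0.05 there, as were 23.5% of all genes. In the other 3 pairs edgeR, DESeq2 and limma-voom called 0, with 2 in ADX and 1 in sham-operated mice at night and 0 in sham-operated mice by day at an unadjusted p under 0.05 in edgeR. Their summed level was 1661 to 2527 CPM in day noise ADX, against 1510 to 1723 CPM in day sham exposure ADX libraries, and 1414 to 1876 CPM in day noise sham-operated, against 1782 to 2061 CPM in day sham exposure sham-operated libraries. At night it was 1452 to 2002 CPM after noise, against 1513 to 1681 CPM after sham exposure, in ADX mice, and 1782 to 2113 CPM after noise, against 1620 to 2083 CPM after sham exposure, in sham-operated mice. The median log2 fold change of the markers was 0.48 in ADX mice by day, with 12 of 12 above 0, and -0.05 in sham-operated mice by day, with 2 of 12 above 0. At night it was 0.12 in ADX mice, with 10 of 12 above 0, and 0.21 in sham-operated mice, with 12 of 12 above 0. In the mean of the pairs 3 were higher (Aif1, Cd14 and C1qb), where 2.4% of all genes were. There 7 were at an unadjusted p under 0.05 in edgeR, as were 18.7% of all genes. In that mean 12 of 12 were above 0 (median 0.18), as were 8286 of all 16607 genes. The part of macrophage RNA in the noise values of the chemokines, of Ccr1 and of the regulators was not tested.

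Of 10 neutrophil markers 0 passed in any of the 5 noise comparisons in edgeR, with 5 at an unadjusted p under 0.05 in ADX mice by day, where 23.5% of all genes were, and 0 in the others, and DESeq2 called 3 in ADX mice by day and limma-voom 0. Their summed level by day was 7303 to 13308 CPM after noise, against 6533 to 8898 CPM after sham exposure, in ADX mice, and 6589 to 8823 CPM after noise, against 7575 to 9578 CPM after sham exposure, in sham-operated mice. At night it was 6537 to 8609 CPM after noise, against 7062 to 8341 CPM after sham exposure, in ADX mice, and 7747 to 9156 CPM after noise, against 8102 to 10308 CPM after sham exposure, in sham-operated mice. All 4 ranges overlapped.

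Adrenalectomy was set against sham operation within each exposure and period, to ask whether the loss of adrenal hormones changes chemokine levels. In the 4 pairs 0 of the 10 passed with edgeR, DESeq2 or limma-voom. Over all genes edgeR called 0.0% in night noise, 1.58% in night sham exposure, 0.0% in day noise and 0.0422% in day sham exposure libraries. Members at an unadjusted p under 0.05 in edgeR numbered 1, 3, 4 and 1 in these pairs, where 8.55%, 14.9%, 11.7% and 11.3% of all genes were under that p. Among them, Cxcl1 was at 0.182, 0.513 and 0.351 CPM in night sham exposure ADX libraries, against 0.106, 0.116 and 0.148 CPM in the sham-operated ones (log2 1.42, SE 0.517, edgeR adjusted p = 0.181). After day noise it was at 0.956, 0.796 and 1.55 CPM in ADX, against 0.325, 0.619 and 0.406 CPM in sham-operated libraries (log2 1.30, SE 0.383, edgeR adjusted p = 0.371). Neither pair overlapped, which is a description only, and neither passed. Ccl2 after day sham exposure had a log2 difference of 0.96 (SE 0.435, edgeR adjusted p = 0.412), and Ccl7 after day noise one of 0.82 (SE 0.368, edgeR adjusted p = 0.406), both without overlap.

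As a mean over the 4 pairs, ADX against sham-operated, a comparison added after seeing the data, 0 of the 10 passed in edgeR. Over all genes 3.2% passed in either direction. Of the 10, 4 were at an unadjusted p under 0.05, as were 16.9% of all genes. Cxcl10 was nearest, at 1.80-fold in ADX mice (log2 0.84, SE 0.255, 95% interval 0.34 to 1.35, edgeR adjusted p = 0.0764). It passed with DESeq2 (adjusted p = 0.0186) and limma-voom (0.0490), and in edgeR without the 3 libraries that stood apart (edgeR adjusted p = 0.0312), without library a of night noise ADX (0.0156) or without library c of night noise sham-operated (0.0493). RLE scaling, no filter, a replicate block and leaving out any other single library left Cxcl10 short of the threshold. Its group mean was higher in ADX than in sham-operated mice in each pair, with 4.77 ± 3.86 and 3.39 ± 1.70 CPM in night noise, 2.78 ± 1.11 and 1.24 ± 0.567 CPM in night sham exposure, 3.14 ± 1.14 and 1.76 ± 0.652 CPM in day noise, and 3.63 ± 0.728 and 2.00 ± 0.457 CPM in day sham exposure (SD, n = 3 each). Single libraries of these groups overlapped except after day sham exposure.

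The mean log2 differences of ADX over sham-operated mice were 0.69 for Cxcl1 (SE 0.217, edgeR adjusted p = 0.0887), 0.57 for Ccl12 (SE 0.223, edgeR adjusted p = 0.179) and 0.54 for Ccl2 (SE 0.192, edgeR adjusted p = 0.134). For Ccl7 the difference was 0.28 with a 95% interval of -0.22 to 0.79, and for Cxcl12 -0.01 with an interval of -0.10 to 0.08. Among the other ligands 1 was higher in ADX mice, Cxcl13, an attractant of B cells (log2 0.99, SE 0.264, edgeR adjusted p = 0.0404). Lower in ADX mice were Ccl5, a T cell chemokine (log2 -0.47, SE 0.106, edgeR adjusted p = 0.0170), and Ccl9 (log2 -0.34, SE 0.0871, edgeR adjusted p = 0.0330). Of the regulators, Dpp4, a protease that trims chemokines, was higher (log2 0.20, SE 0.0476, edgeR adjusted p = 0.0229), and edgeR called 0 of the 20 receptors, with 6 at an unadjusted p under 0.05, while DESeq2 called 2 and limma-voom 1. In the same comparison 5 of 10 B and T cell markers were higher and 1 lower, and their part in these values was not tested.

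Period had no called effect on the 10. Night over day, edgeR called 0 of them in noise ADX, noise sham-operated, sham exposure ADX and sham exposure sham-operated libraries, with 1, 1, 0 and 2 at an unadjusted p under 0.05, against 18.3%, 15%, 6.25% and 11.2% of all genes. After adjustment it called 0.62%, 1.12%, 0.0181% and 0.265% of all genes in either direction. In the mean of these 4 pairs it called 0 as well, with 1 at an unadjusted p under 0.05, against 21.3% of all genes, while 6.01% of all genes passed after adjustment. DESeq2 and limma-voom called 0 of the 10 in all 5 comparisons too. Cxcl1 had the lowest mean log2 difference, -0.47 (SE 0.217, edgeR adjusted p = 0.216). After sham exposure in sham-operated mice it was at 0.106, 0.116 and 0.148 CPM at night, against 0.420, 0.264 and 0.399 CPM by day. Those libraries did not overlap (log2 -1.51, SE 0.528, edgeR adjusted p = 0.235), but after noise in sham-operated mice the order was the other way round, with 0.876, 0.697 and 0.779 CPM at night, against 0.325, 0.619 and 0.406 CPM by day. Of 20 receptors tested, edgeR called 1 in noise-exposed sham-operated mice and 2 in the mean of the pairs, against 1.12% and 6.01% of all genes. Cx3cr1 was lower at night in noise-exposed sham-operated mice (log2 -0.44, SE 0.0947, edgeR adjusted p = 0.0264) and in the mean of the pairs (log2 -0.25, SE 0.0471, edgeR adjusted p = 0.00296). Ackr3 was lower at night in that mean (log2 -0.15, SE 0.0434, edgeR adjusted p = 0.0414). Of 12 macrophage markers 3 passed in the same mean, Aif1 (log2 -0.30) and Mrc1 (-0.25) lower at night and Cd14 (0.21) higher. Their part in the receptor values was not tested.

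The difference between noise responses was tested directly. For night minus day, edgeR called 0 of the 10 in sham-operated mice, in ADX mice and in the mean of both operations, with 4, 0 and 3 at an unadjusted p under 0.05, against 7.3%, 11.7% and 5.5% of all genes, and after adjustment it called 0.0%, 0.00602% and 0.00602% of all genes. DESeq2 and limma-voom called 0 of the 10 in these contrasts and in those below. Cxcl1 in sham-operated mice had the largest difference of the 10, 2.33 on the log2 scale with a 95% interval of 1.03 to 3.62 (edgeR adjusted p = 0.348). That value leans on 3, 3 and 4 reads in the night sham-exposure libraries. In the same contrast Cxcl10 had 1.64 (SE 0.757), Ccl7 1.55 (SE 0.745) and Ccl3 -1.33 (SE 0.539), none past the threshold. Averaged over both operations, Ccl3 had -1.10 (SE 0.375, edgeR adjusted p = 0.778) and Ccl2 0.61 with an interval of -0.14 to 1.37.

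For ADX minus sham-operated noise responses edgeR called 0 of the 10 at night, by day and in the mean of both periods, with 2, 0 and 1 at an unadjusted p under 0.05, against 6.36%, 16.4% and 8.48% of all genes, and after adjustment 0.0% of all genes in each. The mean differences were -0.25 for Ccl2 (95% interval -0.995 to 0.49) and 0.19 for Ccl7 (-0.86 to 1.24), the interval of Ccl7 being wide enough to hold a difference of 1 log2 unit. Cxcl1 at night had -1.71 (SE 0.639, edgeR adjusted p = 0.760) and Cxcl14 in the mean -0.43 (SE 0.142, edgeR adjusted p = 0.366). A noise response that passed in 1 pair and not in another, as for Cxcl1, was therefore not shown to differ between them.

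**Figure D5:**
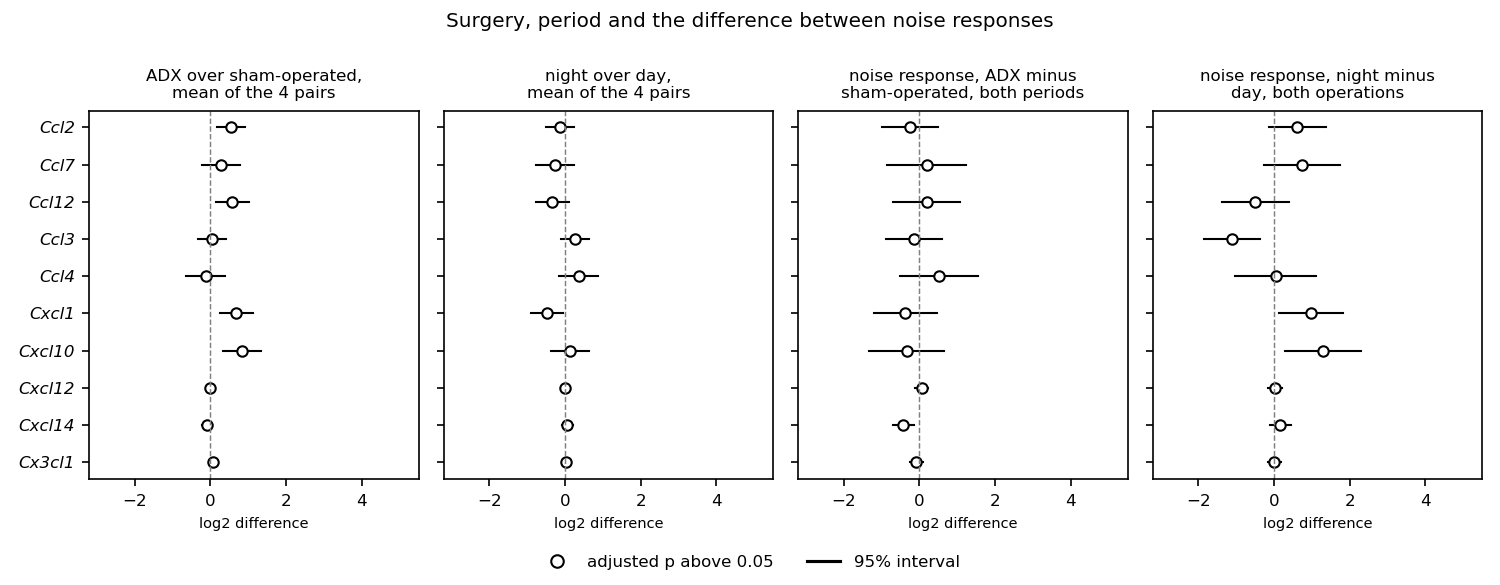
Log2 differences with 95% intervals for the 10 chemokines: ADX over sham-operated and night over day, each as a mean of 4 pairs, and the noise response as ADX minus sham-operated and as night minus day. All points are open, since no edgeR adjusted p was at most 0.05, and the intervals of Cxcl12, Cxcl14 and Cx3cl1 are the narrowest.

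Across the 24 libraries log2 CPM of Ccl2 and Ccl7 had a Pearson correlation of 0.962, which includes the shared difference between noise and sham exposure. After removal of group means it was 0.737, and 0.719 over the 21 libraries left without those that stood apart. Of 45 pairs of members, 5 had a correlation within groups above 0.5 in size. Ccl2 and Cx3cl1 ran opposite within groups, at -0.828 (-0.859 without the 3 libraries), although their pooled correlation was 0.130. Ccl7 and Cx3cl1 (-0.614) and Cxcl12 and Cx3cl1 (-0.566) ran opposite too, and Ccl12 and Ccl3 ran together (0.583). Libraries share depth and dissection among all genes, so these values are descriptions without a test.

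Over all genes tested, the 3 whose log2 CPM was most like that of Ccl2 over the 24 libraries were Hbegf (r = 0.950), an epidermal growth factor receptor ligand, Fosl1 (0.940), a subunit of AP-1, and Gem (0.931), a small GTPase. Within groups these correlations were 0.570, 0.183 and 0.244, so most of the likeness lay in the difference between groups. Most like Cxcl10 were Cd34 (0.727), Apol10b (0.725) and the interferon-induced GTPase Gbp2 (0.722), with 0.568, 0.733 and 0.717 within groups. For Cxcl12 they were Actb (0.855), Noc4l (0.851) and Prcp (0.838), for Cxcl14 BC051226 (0.737) and the cartilage genes Chadl (0.737) and Chad (0.718), and for Cx3cl1 AY512931 (0.704), Cpq (0.690) and Ndufaf6 (0.689). For these last 3 members the likeness within groups was of similar size, 0.582 to 0.871.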

How the data were processed

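Single-end reads of 50 bases from stranded mRNA libraries were made by the authors, per the labels' protocols; TopHat2 2.0.11, HTSeq 0.6p1 and mm10 are named in the submitters' processing notes. The deposited counts are raw read counts per gene, with 3340 of 23420 entries without any count and 0 columns left unmapped. The members and gene lists were chosen with earlier results of these data known. All 24 libraries were fitted together with edgeR 4.0.16 in R 4.3.3 (TMM scaling, factors 0.974 to 1.02; low-count filter by group; robust quasi-likelihood test) with a term for each of the 8 groups, and p-values were adjusted over the 16607 genes tested, threshold 0.05. Levels are CPM on TMM-scaled library sizes; correlations use log2 CPM with a prior count of 2. Intervals are 95% from the SE. The fit was tested on simulated data. No pair of replicates agreed within sampling noise (lowest chi-square per gene 6.10 over genes whose counts summed to 20 or more).

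All members are described; other genes are those of the lists past the threshold in a noise comparison (up to 8 by adjusted p), receptors of the members, and the 3 genes most like each of 5 members. Alternatives were RLE scaling, DESeq2 1.42.0, voom of limma 3.58.1, no filter, only the groups compared, a replicate block, a prior count of 0.5 and leaving out each library. Same-lettered libraries did not deviate together as pairs would: 36 correlations ran from -0.264 to 0.410, and all were over 0.1 in 1 of 12 comparisons, that of noise by day in sham-operated mice. The means of ADX over sham-operated and of night over day were added after seeing the data, as were the mean differences between noise responses. Some genes that these rules name are not reported here.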

Additional observations from a re-analysis of the deposited data

How the results depend on the processing

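Of 830 values of single members in the noise comparisons under the alternatives, 805 stayed on their side of the threshold, 11 lost a call and 14 gained one. Direction was compared only for values called with or without the alternative, and 0 of those reversed. Values called in neither could change sign and still count among the 805. Surgery, period and differences between noise responses are not in this tally. In sham-operated mice by day, members higher after noise numbered 2, and 0 when only the groups compared were fitted, or 0 to 2 on leaving out a library; Ccl2 was lost without library a of day sham exposure sham-operated (edgeR adjusted p = 0.0547), Ccl7 without library a (0.118) or c (0.122) of that group or b (0.0741) or c (0.0560) of day noise sham-operated. In ADX mice by day they numbered 2, and 5 with voom, or 2 to 5 on leaving out a library, the additional genes being Ccl12, Ccl3 and Cxcl1. ADX over sham-operated as a mean, 0 members passed, and 1 (Cxcl10) with DESeq2, voom or without the 3 libraries, or 0 to 1 on leaving out a library. With a replicate block the members higher after noise numbered 2 and 3 in ADX and sham-operated mice at night, 2 and 2 by day and 5 in the mean, the same counts as without it, and 2 in sham-operated mice by day with the block and only the groups compared. Counts over all genes moved far more: in ADX mice by day 667 genes were called after noise, and 147 to 2261 under the alternatives.

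Depth limits Ccl7, Cxcl1 and Ccl4 most, at 3, 3 and 2 reads in their lowest libraries.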
